A study of Mus musculus with 2 samples.

Results

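Binding of Ebf1 around Pparg was described from the peaks of 1 chromatin immunoprecipitation sequencing (ChIP-seq) library of mature 3T3-L1 adipocytes, fat cells obtained from a mouse fibroblast line. The cells had been induced to differentiate with MDI, the usual mixture of isobutylmethylxanthine, dexamethasone and insulin, and were fixed in 1% formaldehyde on day 10. The ChIP group was precipitated with an anti-Ebf1 antibody, and the labels list 1 further library, a whole cell extract (WCE) made with no antibody, whose values were not analysed here. Peaks were taken by position alone: a peak belonged to the Pparg window if its centre lay between 115260001 and 115490000 on chromosome 6 (mm9), which covers the gene and its surroundings. This gave 27 of the 34534 peaks in the list and of the 2716 on chromosome 6. With 1 library there is no replicate error, and every value below describes that library without a test.

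Pparg encodes PPARγ, the ligand-activated nuclear receptor that pairs with RXR and is required for the formation and upkeep of fat cells. It is read from alternative promoters: an upstream one gives the widely expressed PPARγ1, and one inside the gene gives the fat-selective PPARγ2, which has a longer amino terminus. Ebf1 is a helix-loop-helix transcription factor of B cells and adipocytes that binds a palindromic DNA sequence as a dimer. In the order of protein-coding genes in RefSeq (GRCm38.p6, used for order only), Pparg follows Syn2, a synapsin of synaptic vesicles, and Timp4, an inhibitor of matrix metalloproteinases.

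The promoters of Pparg are shown because they are the starts against which Ebf1 peaks in this gene would be placed. RefSeq (GRCm38.p6) gives 3 promoter entries for Pparg, all on the plus strand. The first is the most upstream entry, and the last starts furthest inside the gene. The 250 bases before each of these 2 starts read, 5′ to 3′, as follows, at chr6:115360894-115361143 for the first and chr6:115421816-115422065 for the last.
Pparg most upstream promoter: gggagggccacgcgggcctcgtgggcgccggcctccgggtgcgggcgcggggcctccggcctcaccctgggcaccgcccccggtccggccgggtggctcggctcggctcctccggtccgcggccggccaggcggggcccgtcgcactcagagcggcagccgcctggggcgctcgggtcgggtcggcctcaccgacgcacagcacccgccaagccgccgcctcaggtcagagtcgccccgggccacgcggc
Pparg innermost promoter: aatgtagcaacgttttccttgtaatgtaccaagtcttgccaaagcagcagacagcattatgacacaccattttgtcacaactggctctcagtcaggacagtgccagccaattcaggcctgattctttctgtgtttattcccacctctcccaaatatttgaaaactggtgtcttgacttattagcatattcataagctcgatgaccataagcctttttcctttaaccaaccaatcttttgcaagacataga
The most upstream promoter has a GC content of 82.4% and the innermost one 40.8%, against a median of 52.4% for the same 250 bases of all 32851 entries. The letters CCCNNGGGA, the core of the Ebf palindrome, and TCCCNNGGG on the other strand, were searched in the 300 bases of each entry, which run to 50 bases past the start. No Pparg entry held them, so nothing above is in capitals, while 6.56% of all entries did. The 2 entries of Syn2 and the 1 of Timp4 held none either. This says only that the letters are not in these windows. The promoters have GRCm38 coordinates and the peaks mm9 coordinates, so their coordinates cannot be compared directly. The sequences of the peaks themselves were not used here.

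The Pparg window was cut at the approximate gene ends into 3 stretches, with many weak Ebf1 peaks in the gene and a few very strong ones behind it. Strength here means the deposited score, a whole number per peak whose meaning is not stated in the sources used here. Over the whole list it ran from 3 to 597 with a median of 13. The gene was taken to run from about 115.311 to 115.440 Mb, so distances to its ends are approximate. In the 51 kb before the gene lay 4 peaks with scores of 8 to 41. The 129 kb of the gene held 18 peaks with scores of 5 to 53 and a median of 10.5. The 50 kb after it held 5 peaks with scores of 14 to 310 and a median of 62. Per 10 kb this was 0.784 peaks before, 1.40 within and 1.00 after the gene, while the summed score per 10 kb was 20.2, 20.5 and 122. The gene therefore held the most peaks per length, and the stretch after it the most score. The 2 strongest peaks made up 506 of the 608 after the gene, or 83.2%. Without them (a setting added after the values were seen) the stretch after the gene had 20.4 per 10 kb. This was level with the other stretches, whose own strongest peaks were kept.

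**Figure D1:**
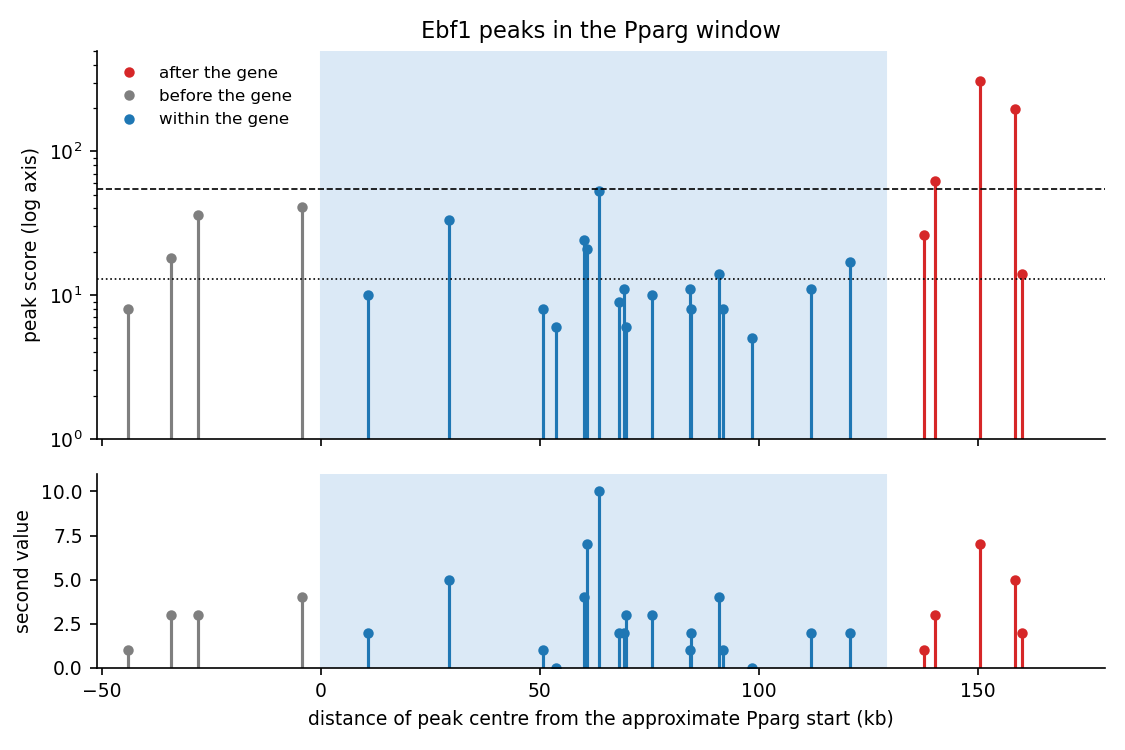
Score on a log axis (top) and second value (bottom) of each of the 27 Ebf1 peaks, by distance in kb of the peak centre from the approximate Pparg start. The shaded band is the gene, the dotted line the list's median score of 13 and the dashed line the score of 55 that begins its top 10%. The highest scores, 310 and 196, stand after the gene and the highest second value, 10, stands inside it.

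The strongest Ebf1 peak covered chromosome 6 from 115461026 to 115461925, with a score of 310. Its centre lay 21.5 kb after the approximate end of Pparg. Only 18 peaks in the list scored higher, which put it at rank 19 of 34534. A second strong peak followed from 115469176 to 115470075, with a score of 196, and its centre lay 29.6 kb after the gene end. This peak ranked 165 in the list. Each was 900 bp wide, and their centres were 8.15 kb apart. In the whole list 166 peaks, or 0.481%, scored 196 or more. Chromosome 6, with 2716 of the 34534 peaks, held 26 of those 166. Among the 164 on chromosomes 1 to 19 and X, 5 pairs lay as close to each other as this pair or closer, the Pparg pair included. The highest score inside the gene was 53, so the peaks of the pair scored 5.85 and 3.70 times as high.

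Around this pair lay 3 further Ebf1 peaks. The peak from 115450976 to 115451475 scored 62, and the one from 115448626 to 115449050 scored 26. The last member of the window, from 115471051 to 115471375, scored 14 and began 975 bp past the end of the peak scoring 196. Joining peaks whose centres lay within 12.5 kb made these 5 a single cluster of 22.7 kb with a summed score of 608. No further peak followed this cluster in the window. Past the window the list resumed 61.2 kb from the last member, with a peak scoring 11 from 115532351 to 115532550.

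Inside Pparg, Ebf1 peaks were frequent and mostly weak. Of the 18 there, 12 scored below the list's median. The narrowest width in the list, 200 bp, was that of 5 of the 18 and of 7001 of the 34534 peaks. The peaks of the gene were not spread evenly. The first 50 kb of the gene held only 2, from 115321626 to 115321875 with a score of 10 and from 115339976 to 115340500 with a score of 33. The next 14 ran from 115361576 to 115409650 with no gap between centres above the joining distance, and formed the largest cluster of the window, 48.1 kb long. Its median score was 9.5. The last 2 peaks of the gene, with scores of 11 and 17, stood in a cluster of their own over 9.18 kb.

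Of the 4 strongest peaks of the gene, 3 lay within 4.03 kb near its middle, and the other was the peak scoring 33. The peak from 115374251 to 115374875 scored 53, just under the score of 55 that begins the top 10% of the list, and its centre lay 63.6 kb past the approximate start. The peaks from 115370851 to 115371350 and from 115371501 to 115371900 scored 24 and 21, and were separated by 150 bp. These 3 peaks carried 98 of the summed score of 265 within the gene, or 37.0%. Every other peak of the 14 scored 14 or less. In GRCm38 the innermost Pparg promoter lies past the most upstream one by a distance close to that of these 3 peaks from the approximate start. Whether the 4.03 kb include the PPARγ2 promoter was not tested, because the position of that promoter on mm9 was not used.

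At the approximate start of Pparg, its upstream end, the list held no peak. Starts further inside the gene were not placed on mm9. The nearest centre lay 4.35 kb before the approximate start, in the peak from 115306426 to 115306875 with a score of 41, and the nearest inside the gene lay 10.8 kb past it. Further before the gene, the peak from 115282801 to 115283300 scored 36. The first member of the window, from 115266951 to 115267150, scored 8. The gap between this first group and the peak scoring 41 was the longest in the window, 23.6 kb between centres. Beyond the window, the preceding peak on chromosome 6 scored 45 and lay 26.3 kb from the first member, from 115240451 to 115241000. The 15 members not given by the naming rule scored 5 to 18, were 200 to 350 bp wide, and included 14 within the gene.

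Single Pparg peaks were about as strong as peaks in general. Scores in the top 10% of the list, at 55 or above, belonged to 3 of the 27, or 11.1% (exact Clopper-Pearson 95% interval 2.35 to 29.2), where 10.2% of the whole list passed the same threshold. All 3 lay after the gene. In the top 5%, at 84 or above, were 2 of 27 against 5.04% of the list, and in the top 25%, at 26 or above, 8 of 27 against 25.7%. At or above the median score lay 14 of 27, against 50.6% of the list. The window ranked high by its number of peaks and by its strongest peak. Its 27 peaks were 8.85 times the mean of 3.05 ± 4.16 (SD, n = 11174 windows) in windows of 230 kb tiled over chromosomes 1 to 19 and X, where the median was 2. As many or more peaks were found in 25 of these windows, or 0.224%, and a peak scoring 310 or more in 20, or 0.179%. Neighbouring peak centres in the Pparg window were a median of 6344 bp apart, against 22140 bp over chromosomes 1 to 19 and X.

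By summed score the Pparg window stood still higher. Its sum of 976 compared with a median of 18 and a 90th percentile of 222 among the same windows, and 9 of 11174 reached it. The pair after the gene made up 506 of the 976, or 51.8%. Without that pair the window's sum was 470, and 98.1% of windows were lower instead of 99.9%, a setting added after the values were seen. On chromosome 6 none of 636 windows reached 976, the highest being 950 in a window that overlaps the Pparg window. The 25 windows with as many peaks differed from it in the strength of their best peak. The highest score in them had a median of 35, and all 25 stayed below 310. Of those windows 9 lay on chromosome 2 and 5 on chromosome 4. Windows that matched both the count and the sum numbered 4, at 176908876 to 177138875 and 177138876 to 177368875 on chromosome 2, and at 71379501 to 71609500 and 113239501 to 113469500 on chromosome 8. Their highest scores were 45, 37, 253 and 181.

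**Figure D2:**
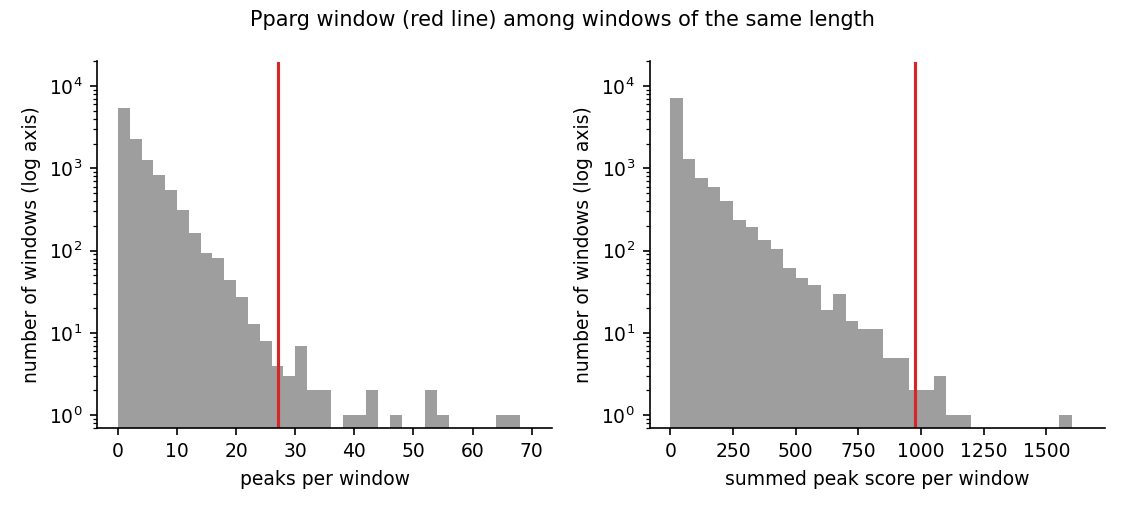
Number of windows of 230 kb (log axis) by peaks per window (left) and by summed score per window (right), for 11174 windows on chromosomes 1 to 19 and X. The red line marks the Pparg window, with 27 peaks and a summed score of 976; 25 windows reach the former and 9 the latter.

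The gene and the stretch after it ranked high for different measures. Among 19932 windows of 129 kb, 43 held 18 peaks or more, as Pparg did, but 577, or 2.89%, reached its summed score of 265, and 13.4% held a peak scoring 53 or more. The mean score of peaks in the gene was 14.7, and the median of this mean over the 43 dense windows was 16.4. Among 51439 windows of 50 kb, by contrast, 1086 held 5 peaks or more, as the stretch after Pparg did, and 9 reached its summed score of 608. The surroundings of the window were sparser. The 1 Mb before it held 28 peaks, at 0.280 per 10 kb with a highest score of 212, and the 1 Mb after it held 38, at 0.380 per 10 kb with a highest score of 151. The window itself had 1.17 per 10 kb.

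Peak scores around Pparg rose with width, as they do in the list. Over the 27 peaks Spearman's rho between score and width was 0.884, against 0.925 over the 34534 peaks, which share 1 library and are not independent. Beside the 47 peaks of its own width, 900 bp, the strongest peak was less extreme. Its score of 310 compared with a median of 118 and was above 93.6% of those 47. The peak scoring 196 was above 72.3% of them. In the gene, the peak scoring 53 fell under the median of 75.5 for its width of 625 bp, and the peaks scoring 24 and 21 under medians of 40 and 22. The 33 of the peak from 115339976 also lay under its width's median of 45. Of all 18 peaks in the gene, 7 were above and 10 below the median of their width. Of all 27 in the window, 14 were above and 11 below. In the top 10% of their own width were 6 of 27, or 22.2% (exact 95% interval 8.62 to 42.3), against 11.6% of the list by the same rule. These 6 scored 310 after the gene, 18 before it, and 10, 11, 11 and 17 within it.

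**Figure D3:**
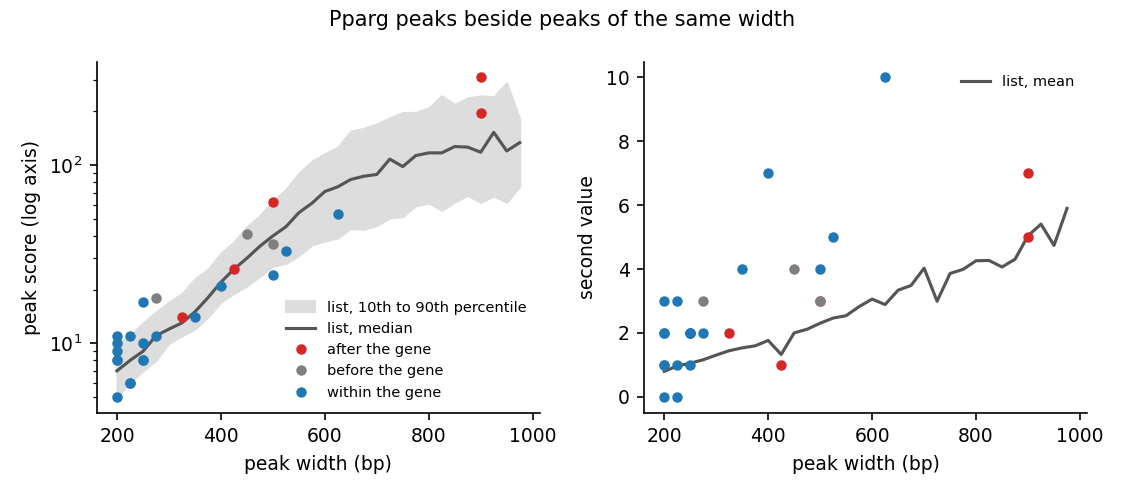
Score on a log axis (left) and second value (right) of the 27 Pparg peaks against peak width in bp, some points lying on top of each other. Grey shows the whole list: median score with the 10th to 90th percentile, and mean second value. The wide peaks inside the gene lie under the median score line, and the highest second value, 10 at a width of 625 bp, is inside the gene, with 7 reached at 400 bp inside it and at 900 bp after it.

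The other deposited whole number, called the second value here, ran from 0 to 15 over the list and its meaning is not stated. No source used here says whether it is a measure of binding, or of control reads or background, so a high second value cannot be read as more Ebf1. The largest second value among the 27 peaks of the window lay inside Pparg. The peak scoring 53 had a second value of 10, which 55 of 34534 peaks reached. The other peaks of that group had 4 and 7, for scores of 24 and 21. After the gene, the peaks scoring 310 and 196 had 7 and 5. The ratio of score to second value was thus 5.30 for the strongest peak inside the gene, and 44.3 and 39.2 for the pair after it. The 55 peaks with a second value of 10 or more had a median score of 120, and 5 of them scored below 53.

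Second values of Pparg peaks were mostly above those of the list. A second value of 2 or more was found at 20 of 27 peaks, against 40.1% of the list, 4 or more at 8 of 27, against 10.2%, and 7 or more at 3 of 27, against 1.4%. The mean was 2.96 in the window, where peaks of the same widths averaged 1.65 over the list. Within the gene it was 2.83 against 1.29, or 2.19 times. After the gene it was 3.60 against 3.03, or 1.19 times. Chromosome 6 outside the window was itself 1.26 times the list at equal width, and the 1 Mb on each side of the window 1.58 times. Set against chromosome 6 at equal width, the ratio was 1.55 for the window and 1.73 for the gene. On that reference it was 1.35 after the gene and 1.26 for the 1 Mb on each side. The part of the second value in the number or score of these peaks was not tested.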

How the data were processed

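Ebf1 was profiled by ChIP-seq in 1 library of mature 3T3-L1 adipocytes. The submitters' processing notes name mm9 as the build and SAMtools as a tool. Not given in the sources used here are the aligner, the peak caller with its threshold, and the role of the whole cell extract. The authors deposited a list without a header, with a position and 2 whole-number scores per peak. Whether the second of them comes from the control is not stated. Neither score was treated as a read count, and no depth is stated, which leaves the precision of weak peaks unknown. Starts and ends were used as deposited, counting from 1.

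The window and the approximate extent of Pparg came from the rule that defined the locus, and no mm9 annotation was used. Genes after Pparg are not reported here. Windows of equal length were tiled without overlap from the first to the last peak of chromosomes 1 to 19 and X, with assembly gaps included. A percentile is the share of windows or peaks with a lower value. Same-width values compare peaks of identical width. Exact Clopper-Pearson 95% intervals cover counting error only, and peaks are not replicates. Peaks were named by position if among the 10 highest scores or first or last in the window; a few others are given as gene or window neighbours. The members, lists and descriptions were chosen with earlier results of these data known. The counting code was tested on simulated positions. Scripts ran under Python 3.11.15 with pandas 2.3.3 and numpy 2.4.6 for counting, scipy 1.17.1 for intervals and matplotlib 3.10.9 for plots. Alternatives were score thresholds, window and gene bounds, tiling, joining distance and the reference set of peaks.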

Additional observations from a re-analysis of the deposited data

How the results depend on the processing

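Under the alternatives, 14 of 32 values stayed close to the main one and 18 did not. These are counts, shares and ranks, which have no direction. Close means within 1.5 times for counts, score densities and score shares, and within the exact 95% interval of the main value for percentiles. That interval narrows as windows or peaks increase in number, and these are not replicates. A change in percentile from 99.94% to 99.85% therefore already counts as not close. The 27 peaks of the Pparg window became 14 with scores from the median upwards and 3 in the top 10% by score, and the 18 in the gene became 6 and 0, by construction. In the top 10% the window stood above 97.3% of windows by count, from 99.8%, and above 99.7% by summed score, from 99.9%. By summed score it stood above 100% of windows on chromosome 6 alone and 98.1% without the 2 strongest peaks. The gene held 27.2% of the window's score, 0 in the top 10% and 56.4% without the 2 strongest peaks, so that it then held most of it. The summed score per 10 kb after the gene went from 122 to 20.4 without them. Strong peaks numbered 3 in the top 10%, 8 in the top 25% and 6 in the top 10% of their own width. The largest cluster went from 14 peaks to 6 with a joining distance of 5 kb and 27 with 25 kb. The strongest peak stood above 99.94% of the list, 99.85% of chromosome 6 and 93.6% of the 47 peaks of its width. By score divided by width it stood above 99.90% of the list. Leaving out the 2 strongest peaks was chosen after seeing the data. There was 1 library, hence no replicate to leave out. No paired analysis was possible because only the ChIP library had values here. Genomic location by annotation, motifs in peaks and pathway genes were planned for an mm9 reference and not run.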
